A study of Mus musculus with 6 samples.

Results

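The genes described here are 10 regulators of muscle wasting, chosen by name from the gene symbols in the deposited tables. They are the ubiquitin ligases Trim63, Trim55, Trim54, Fbxo32, Fbxo40 and Fbxo30, the transcription factors Foxo1, Foxo3 and Foxo4, and Klf15, a transcription factor of the glucocorticoid response. All 10 were found, out of 16964 genes counted in every library. RNA of female mice was sequenced from the rectus femoris (the fast thigh muscle in front of the femur), from the Achilles tendon and from the fat pad that lies below the kneecap, with 2 libraries each. The series concerns letrozole, an inhibitor of the oestrogen-making enzyme aromatase. The drug is named in the title of each fat pad library and of no other, and no label marks a treated and an untreated library within a tissue. Letrozole was therefore not compared with a control, and wherever the fat pad is compared, the tissue and the drug cannot be told apart. The titles also hold a code that is shared within each tissue and differs between tissues, with no meaning given. Whatever it marks cannot be told apart from the tissue in any comparison, rectus femoris against tendon included. The fat pad count table lists 20516 genes, and those of rectus femoris and tendon list 17120 each. Strain, age, dose and duration are not given in the labels, nor do the labels say whether 1 or several animals gave the libraries of a tissue. The p-values therefore reflect the variation among these 6 libraries, part or all of which may be technical. The source label names the fat pad for all 6 libraries, and the tissues used here come from another label.

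Skeletal muscle shrinks when protein breakdown outpaces synthesis, and most of the contractile protein is removed by the proteasome after ligases have tagged it with ubiquitin. In mice and rats, fasting, denervation, disuse and glucocorticoids raise the messenger RNAs of Trim63 (the ligase MuRF1) and Fbxo32 (atrogin-1, also called MAFbx) in muscle. The FoxO factors switch these genes on when insulin and Akt signalling is low, since Akt phosphorylates FoxO proteins and keeps them out of the nucleus. Klf15 is itself induced by the glucocorticoid receptor and drives genes of amino acid breakdown. FoxO factors and Klf15 also act in fat, in adipocyte formation and in fuel use.

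Promoter sequences from RefSeq (build GRCm38.p6) were at hand for 7 of the 10 genes, in 8 entries, and none was matched for Fbxo32, Foxo4 or Trim55. The FoxO motif GTAAACA and the palindromic motif of the glucocorticoid receptor were searched on both strands from 250 bases before to 50 bases after each start. Trim63 and Trim54 are printed because their RNA levels followed each other more closely than those of any other member and Trim63 in these libraries, although 1 holds a FoxO motif and the other does not. Both are on the plus strand, 5′ to 3′, with motifs in capitals, covering chr4:134314870-134315119 for Trim63 and chr5:31116362-31116611 for Trim54.
Trim63: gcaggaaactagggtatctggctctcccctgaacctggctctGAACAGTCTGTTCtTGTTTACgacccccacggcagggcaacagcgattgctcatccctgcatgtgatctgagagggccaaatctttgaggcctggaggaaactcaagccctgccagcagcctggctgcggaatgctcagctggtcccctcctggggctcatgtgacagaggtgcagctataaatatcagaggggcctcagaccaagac
Trim54: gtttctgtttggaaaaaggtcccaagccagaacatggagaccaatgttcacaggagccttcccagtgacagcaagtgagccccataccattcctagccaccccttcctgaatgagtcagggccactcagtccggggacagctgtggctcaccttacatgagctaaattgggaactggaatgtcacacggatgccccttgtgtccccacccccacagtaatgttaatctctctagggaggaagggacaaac
In Trim63 the FoxO motif stood as TGTTTAC, its reverse complement, with its first base 194 bases before the start. It was the only FoxO match in the 8 entries, and 3.65% of all 32851 listed promoters hold this motif. The glucocorticoid receptor motif matched none of the 8 entries, and 3 of all listed promoters hold it. A form of the palindrome without its outermost base on either side was tried after the sequence had been seen. It matched Trim63 as GAACAGTCTGTTC, with its first base 208 bases before the start and a single base between it and the FoxO motif, and 0.0578% of all promoters hold it. No motif was found in Trim54, and nothing about binding follows from either result.

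The libraries held 56216295 and 58544836 counts in rectus femoris, 59042675 and 62063826 in tendon and 83132413 and 106319037 in fat pad. Levels are given as CPM (counts scaled to a common library total) after trimmed mean of M-values (TMM) scaling, which sets libraries on a common scale by the bulk of their genes. The 18 markers of fast and slow muscle fibres took 22.0 and 20.6% of all counts in rectus femoris, 5.52 and 8.96% in tendon, and 0.0450 and 0.0451% in fat pad. The tendon libraries therefore held muscle RNA, and they held it unequally: the fast myosin gene Myh4 reached 596 CPM in tendon library 1 and 19283 CPM in tendon library 2. Myh7, the slow myosin, stood at 4983 and 2547 CPM in the same libraries and at 1.79 and 6.12 CPM in rectus femoris. All 8 slow fibre markers were called lower in rectus femoris than in tendon, with a median log2 fold change of -6.99. Of the 10 fast fibre markers, 5 were called higher and 0 lower (median 2.66). The muscle RNA of the 2 tissues thus differed in its fibre markers and not only in amount. The summed level of 8 adipocyte markers was 2732 and 4602 CPM in rectus femoris, 6931 and 2978 CPM in tendon, and 101720 and 110178 CPM in fat pad, and that of 8 tenocyte markers was 2196 and 1476 CPM, 18523 and 19181 CPM, and 679 and 421 CPM in the same order. No fibre, adipocyte or tenocyte marker was at 0 in any library. In such bulk libraries, fewer cells of a type and less RNA per cell cannot be told apart.

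Of the 10 genes, 7 were higher and 1 was lower in rectus femoris than in fat pad (edgeR's quasi-likelihood test, Benjamini-Hochberg adjusted p under 0.05), where 29.6% of all 15856 genes tested were higher, 29.8% were lower and 59.4% were called in either direction. Against tendon, 5 were higher and 0 were lower in rectus femoris, where 12.7% of all genes were higher, 13.3% lower and 26% called in either direction. In tendon, 7 were higher and 1 was lower than in fat pad, against 31.4% of all genes higher, 27.2% lower and 58.5% in either direction. The median log2 fold change of the 10 was 6.92 for rectus femoris over fat pad, 1.11 for rectus femoris over tendon and 5.63 for tendon over fat pad, beside -0.14, -0.10 and 0.01 over all genes. Libraries did not overlap for 7 genes higher and 1 lower in rectus femoris than in fat pad, as for 39.7% and 43.7% of all genes, and for 7 higher and 2 lower in tendon than in fat pad, as for 41.1% and 40.4% of all genes. The 3 comparisons share libraries and are given side by side, not as independent results. All 10 genes passed the filter on low counts. Trim55 and Foxo4 did so through rectus femoris and tendon only, so their counts as higher than in fat pad carry no weight. Both also enter the medians and the counts of libraries that did not overlap against fat pad.

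**Figure D1:**
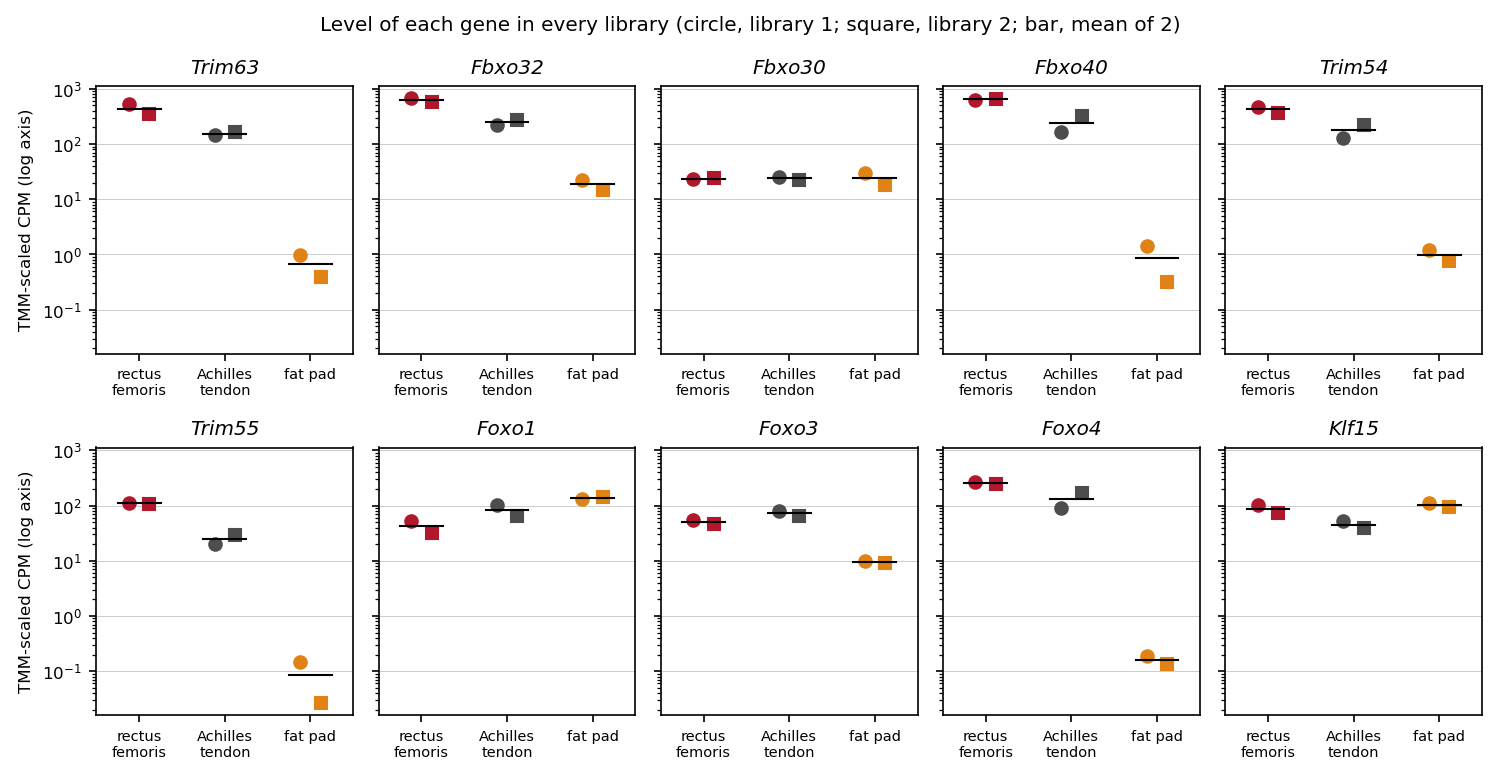
Each panel shows 1 gene, with its level in TMM-scaled CPM on a log axis for the 2 libraries of rectus femoris, Achilles tendon and fat pad (circle, library 1; square, library 2; bar, mean of 2). Fbxo30 lies between 18.3 and 29.6 CPM in all 6 libraries, Klf15 is lowest in tendon, Foxo1 is at its highest in fat pad, and the fat pad values of Trim63, Fbxo40, Trim54, Trim55 and Foxo4 lie at 1.43 CPM or below.

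Trim63, Trim55 and Trim54 encode the muscle RING-finger proteins MuRF1, MuRF2 and MuRF3, which bind the giant protein titin or the microtubules of the fibre. Trim63 (ENSMUSG00000028834) had 523 and 354 CPM in the rectus femoris libraries, 143 and 165 CPM in tendon, and 0.962 and 0.391 CPM in fat pad, the last from 87 and 44 counts. The tissues did not overlap, and the fat pad lay far below both others. Its log2 fold change was 9.35 ± 0.57 (SE) for rectus femoris over fat pad (edgeR adjusted p = 5.11e-05) and 7.84 ± 0.54 for tendon over fat pad (8.31e-05). For rectus femoris over tendon it was 1.51 ± 0.40 (edgeR adjusted p = 0.0362).

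Trim55 (ENSMUSG00000060913) had 110.5 and 109 CPM in rectus femoris, 20.3 and 29.8 CPM in tendon, and 0.144 and 0.0267 CPM in fat pad. The fat pad values rest on 13 and 3 counts, the second of them at the limit of detection used here. Trim55 had the largest difference among the 10 between rectus femoris and tendon, a log2 fold change of 2.13 ± 0.38 (edgeR adjusted p = 0.0135). Against the fat pad the fitted log2 fold changes were 10.38 ± 0.59 for rectus femoris and 8.25 ± 0.56 for tendon. Trim55 passed the filter on low counts through those tissues only, so its calls against fat pad carry no weight.

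Trim54 (ENSMUSG00000062077) had 477 and 373 CPM in rectus femoris, 131 and 225 CPM in tendon, and 1.18 and 0.756 CPM in fat pad. It differed between rectus femoris and tendon by a log2 fold change of 1.26 ± 0.34 (edgeR adjusted p = 0.0389), and from fat pad by 8.78 ± 0.48 in rectus femoris and 7.52 ± 0.45 in tendon (4.59e-05 and 6.49e-05). Of the annotated exon bases of Trim54, 26.6% are shared with the antisense gene Gm15469, and the strand setting of the counting is not given in the sources used here, so part of its counts may belong to that gene.

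Fbxo32, Fbxo40 and Fbxo30 encode F-box proteins, the parts of cullin ligases that pick the substrate. Fbxo32 (ENSMUSG00000022358), whose product targets MyoD and the translation factor eIF3f, had 678 and 572 CPM in rectus femoris, 217 and 278 CPM in tendon, and 22.4 and 14.8 CPM in fat pad. Unlike Fbxo40 and the MuRF genes it was thus well measured in fat pad, with 2028 and 1669 counts. Its log2 fold change was 5.07 ± 0.33 for rectus femoris over fat pad, 1.34 ± 0.29 for rectus femoris over tendon and 3.73 ± 0.31 for tendon over fat pad (edgeR adjusted p = 5.76e-05, 0.0203 and 0.000135).

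Fbxo40 (ENSMUSG00000047746), a ligase of the insulin receptor substrate IRS1 that is known from striated muscle, had 633 and 665 CPM in rectus femoris, 168 and 322 CPM in tendon, and 1.43 and 0.320 CPM in fat pad. The rectus femoris libraries lay close together and the tendon libraries apart. Its log2 fold change of 1.41 ± 0.61 for rectus femoris over tendon was nearly as large as that of Trim63 and was not called (edgeR adjusted p = 0.129). Over fat pad it was 9.55 ± 0.87 in rectus femoris and 8.14 ± 0.83 in tendon (edgeR adjusted p = 0.000147 and 0.000253).

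Fbxo30 (ENSMUSG00000047648), also called MUSA1, is a ligase that in mice is needed for muscle loss after denervation and is held down by bone morphogenetic protein signalling. It had 22.9 and 23.8 CPM in rectus femoris, 25.5 and 22.6 CPM in tendon, and 29.6 and 18.3 CPM in fat pad. The fat pad libraries bracketed all the others. Its log2 fold changes were -0.04 ± 0.26 over fat pad and -0.04 ± 0.26 over tendon for rectus femoris, and 0.00 ± 0.26 for tendon over fat pad (edgeR adjusted p = 0.912, 0.920 and 0.989), and their sign changed with the processing in all 3 comparisons. In the deposited TPM it was called higher in tendon than in fat pad in all 3 settings, with log2 fold changes of 0.91 to 0.97 (limma adjusted p = 0.0239, 0.0225 and 0.0187). The median over all genes in these settings was 0.82, 1.09 and 0.94, so Fbxo30 lay at the level of all genes. The p-values from counts do not show that the tissues were alike.

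FoxO proteins are forkhead transcription factors held in check by Akt. Foxo4 (ENSMUSG00000042903) had 264 and 241 CPM in rectus femoris, 89.7 and 171 CPM in tendon, and 0.188 and 0.133 CPM in fat pad, from 17 and 15 counts. Foxo4 passed the filter on low counts through rectus femoris and tendon only, so its calls against fat pad carry no weight. Its fitted log2 fold change was 10.62 ± 0.50 for rectus femoris over fat pad and 9.66 ± 0.48 for tendon over fat pad. Between rectus femoris and tendon it was 0.96 ± 0.32 and not called (edgeR adjusted p = 0.0683).

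Foxo3 (ENSMUSG00000048756), the FoxO factor best known for driving Fbxo32 and autophagy genes in mouse muscle, had 54.7 and 46.2 CPM in rectus femoris, 78.4 and 65.6 CPM in tendon, and 10.1 and 8.94 CPM in fat pad. Tendon was highest, without overlap, although the difference between rectus femoris and tendon was not called (log2 fold change -0.51 ± 0.18, edgeR adjusted p = 0.0814). Both rose over fat pad, by 2.41 ± 0.19 in rectus femoris and 2.92 ± 0.20 in tendon on the log2 scale (edgeR adjusted p = 9.51e-05 and 8.01e-05).

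Foxo1 (ENSMUSG00000044167) ran the other way, with 52.7 and 31.5 CPM in rectus femoris, 101 and 65.0 CPM in tendon, and 130.2 and 145 CPM in fat pad. The 3 tissues did not overlap. It was lower in rectus femoris than in fat pad, with a log2 fold change of -1.71 ± 0.32 (edgeR adjusted p = 0.00351). With limma on the deposited TPM, this call held in 1 of 3 settings, and the log2 fold change over all 15 alternatives ranged between -2.24 and -0.94. Rectus femoris over tendon, at -0.98 ± 0.32, and tendon over fat pad, at -0.73 ± 0.31, were not called (edgeR adjusted p = 0.0603 and 0.0845). The antisense gene Gm20402 shares 7.78% of the exon bases of Foxo1.

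Klf15 (ENSMUSG00000030087) had 100.2 and 73.5 CPM in rectus femoris, 52.0 and 38.6 CPM in tendon, and 113 and 95.3 CPM in fat pad. Rectus femoris and fat pad overlapped (log2 fold change -0.26 ± 0.24, edgeR adjusted p = 0.373), and the tendon libraries lay below all the others. Klf15 was higher in rectus femoris than in tendon by 0.94 ± 0.24 and lower in tendon than in fat pad, at -1.20 ± 0.24, on the log2 scale (edgeR adjusted p = 0.0334 and 0.00503). Neither difference was called in the deposited TPM, where the log2 fold changes at a pseudocount of 1 were 0.0217 and 0.0057. The medians over all genes there were -0.48 and 0.82. The difference between rectus femoris and tendon was called in 7 of 15 alternatives in all. Under total counts Klf15 was called lower in rectus femoris than in fat pad (log2 fold change -0.79, edgeR adjusted p = 0.0322).

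**Figure D2:**
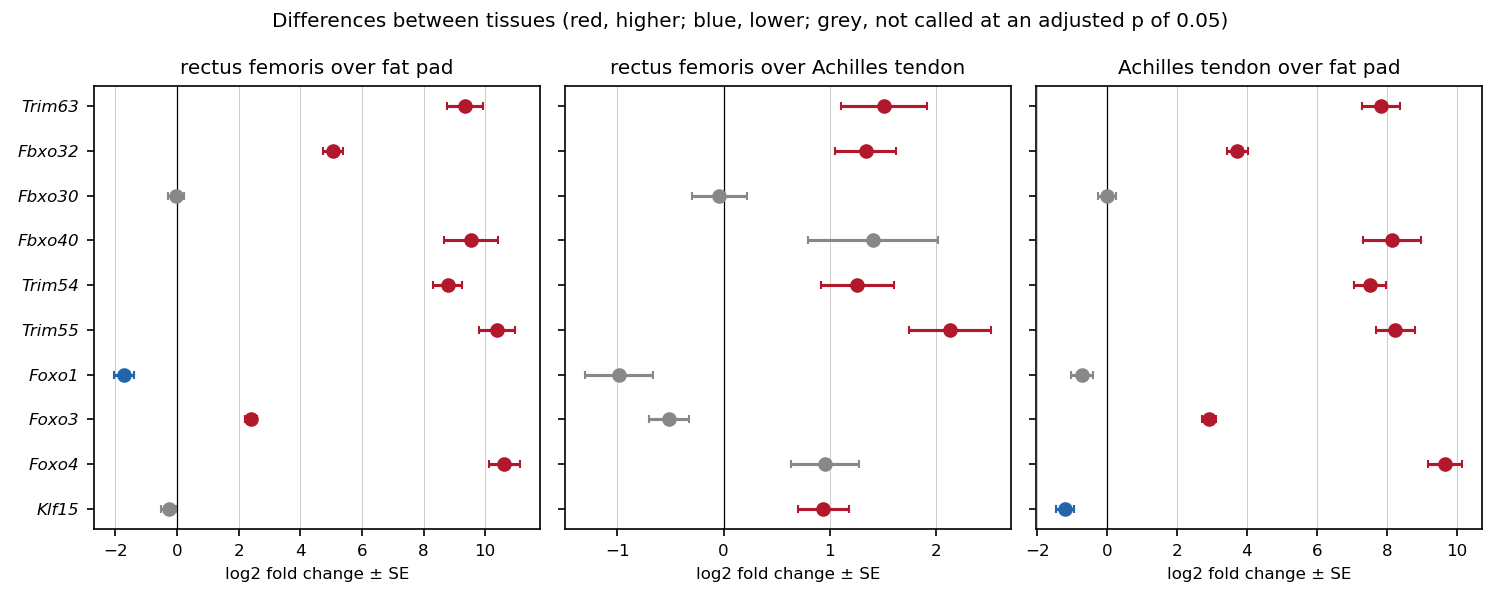
The 3 panels show the log2 fold change of each gene for rectus femoris over fat pad, rectus femoris over Achilles tendon and Achilles tendon over fat pad, with bars of 1 SE from edgeR (red, higher; blue, lower; grey, not called at an adjusted p of 0.05). Trim55 and Foxo4 passed the filter on low counts through rectus femoris and tendon only, so their red marks against fat pad carry no weight. Apart from these, the differences from fat pad run up to 9.55 in rectus femoris, for Fbxo40. None of those between rectus femoris and tendon exceeds 2.13.

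Between genes, levels were compared per kilobase of annotated exon. In rectus femoris Trim54 led with 296 ± 51.6 CPM per kilobase (SD, n = 2), ahead of Trim63 with 154 ± 42.1, Fbxo40 with 118 ± 4.09, Fbxo32 with 89.6 ± 10.7 and Foxo4 with 72.6 ± 4.67. Trim63 and Fbxo40 did not overlap in that tissue, with the lower Trim63 library at 124 and the higher Fbxo40 library at 121 CPM per kilobase. Trim55, Klf15, Foxo3, Foxo1 and Fbxo30 followed with means of 41.2, 31.1, 6.66, 4.86 and 4.49 CPM per kilobase, of which Foxo1, with an SD of 1.73, overlapped with Fbxo30. In fat pad, where the deposited TPM followed the counts, the order by TPM was Foxo1 with 62.7 ± 6.34, Klf15 with 37.2 ± 3.60, Fbxo30 with 12.4 ± 3.88 and Fbxo32 with 10.5 ± 2.78, the last 2 overlapping. By TPM, which does not follow the counts of single libraries in rectus femoris, Fbxo32 stood second in that tissue, with 548 ± 117 behind Trim54 with 746 ± 37.3 and ahead of Trim63 with 397 ± 10.2 and Fbxo40 with 368 ± 60.6. In fat pad the first 2 changed places by CPM per kilobase, with 15.9 ± 1.23 for Foxo1 and 37.3 ± 4.49 for Klf15.

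Among Foxo1, Foxo3 and Foxo4, the leading gene was Foxo4 in both rectus femoris and tendon and Foxo1 in fat pad. The summed FoxO level covers these genes and leaves out Foxo6. Foxo4 held 85.1 and 87.7% of the summed FoxO level per kilobase in the rectus femoris libraries, 53.8 and 75.2% in tendon, and 0.329 and 0.213% in fat pad. Foxo1 held 6.82 and 4.61% in rectus femoris, 24.5 and 11.5% in tendon, and 91.6 and 93.2% in fat pad. The MuRF family kept its order, with Trim54 at 59.6 and 61.1% of its summed level in rectus femoris, 61.1 and 69.3% in tendon, and 67.7 and 78.1% in fat pad. The fat pad shares of this family rest on few counts: 107 and 85 for Trim54, 87 and 44 for Trim63, and 13 and 3 for Trim55. Of the F-box genes, Fbxo30 held 2.03 and 2.21% in rectus femoris, 7.38 and 4.24% in tendon, and 62.1 and 61.7% in fat pad. These shares are descriptions within each library, and no test was run on them.

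In the comparison of rectus femoris with tendon, the called genes were Trim63, Fbxo32, Trim54, Trim55 and Klf15. The libraries did not overlap for 7 genes with rectus femoris higher and for 2, Foxo1 and Foxo3, with rectus femoris lower, where 33.7% and 36.4% of all genes did the same. The calls rest on few libraries: with either rectus femoris library left out none of the 10 was called, and over all genes only 43 calls were left without library 1 and 19 without library 2, against 4127 with all libraries. Without tendon library 1, which held the less muscle RNA by fibre markers, Trim55 and Klf15 were still called. With total counts in place of TMM (median log2 fold change of all genes -0.83, against -0.10), Trim55 was the only gene still called higher, at 1.42, and Foxo1 and Foxo3, at -1.74 and -1.25, were called lower.

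The counts of each gene were set against the muscle content of its own library, as counts per 1000 counts of the 18 fibre markers. Trim63 had 1.72 and 1.33 per 1000 in rectus femoris and 3.40 and 2.16 in tendon. Fbxo32 had 2.23 and 2.16 in rectus femoris and 5.17 and 3.64 in tendon. Thus the order of the tissues turned round for both ligases. On this scale both rectus femoris libraries lay below both tendon libraries for 9 of the 10 genes, Trim55 overlapping, as they did for 92% of all genes tested, and above them for 0 genes, beside 0.751% of all genes. The markers include the abundant fast myosin and actin genes, which fill much of the rectus femoris libraries.

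With Ttn, the gene of titin, as the only measure of muscle, the count changed to 3 genes lower and 5 higher in rectus femoris, where 61.1% of all genes were lower and 8.67% higher. Trim55 then had 13.7 and 11.2 counts per 1000 counts of Ttn in rectus femoris and 4.64 and 4.76 in tendon. Trim63 had 65.0 and 36.5 in rectus femoris and 32.6 and 26.4 in tendon. Foxo4 and Klf15 overlapped. Des, which encodes the filament protein desmin, gave 3 genes lower and 6 higher, beside 49.4% and 12% of all genes. Des is also on the list of smooth muscle markers, so it does not measure skeletal muscle alone. The 10 fast markers alone gave 10 lower and 0 higher, beside 93% and 0.549%. Foxo1, Foxo3 and Fbxo30 were lower in rectus femoris by each of the 4 measures. Klf15 was lower by the 18 markers and by the fast markers and overlapped by Ttn and by Des. For the other 6 genes the order of the tissues per unit of muscle RNA depended on which muscle genes were counted. The 3 measures other than the 18 markers were chosen after the data had been seen. How far the tendon levels come from muscle RNA in the tendon libraries was not tested.

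**Figure D3:**
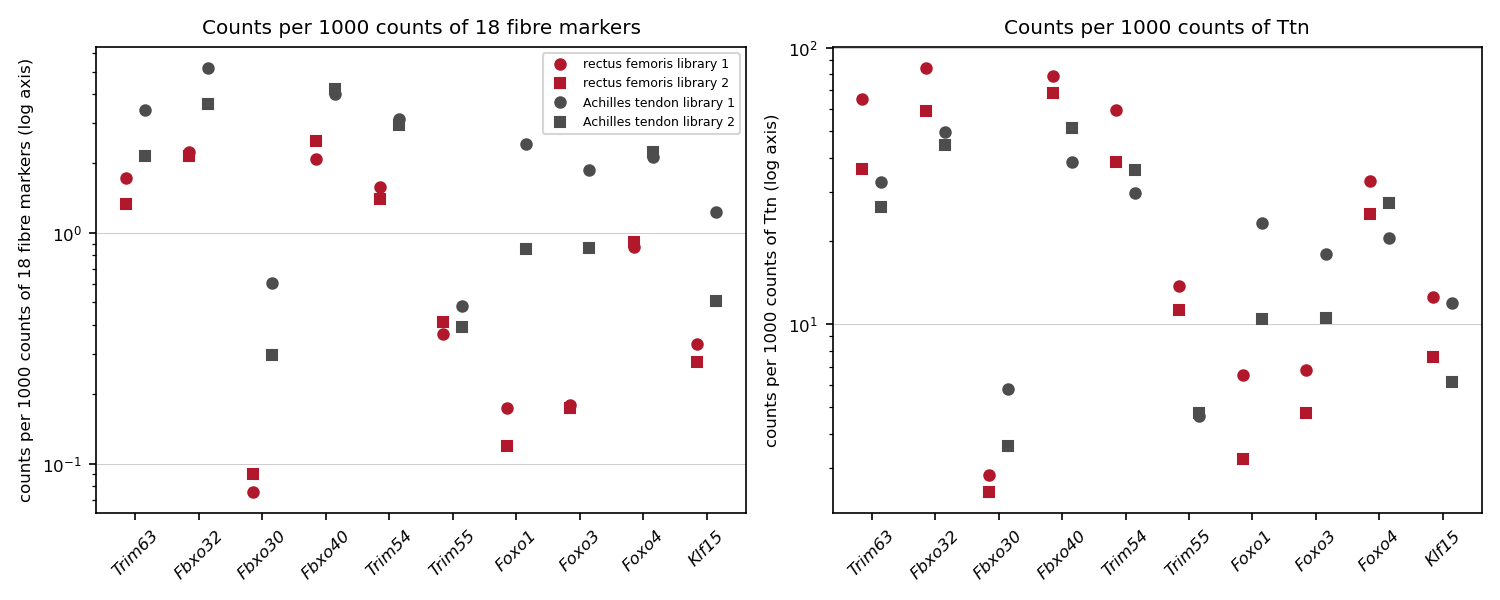
Counts of each gene per 1000 counts of the 18 fibre markers (left) and per 1000 counts of Ttn (right), on log axes, in the 2 rectus femoris libraries and the 2 Achilles tendon libraries. On the left the rectus femoris values lie below the tendon values for 9 of 10 genes; on the right they do so for 3 and lie above them for 5.

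Within a tissue the labels do not say what sets the 2 libraries apart, so ratios of library 2 over library 1 are given with intervals that cover counting error only. In rectus femoris and in tendon none of the 10 genes differed 2-fold. Of all genes that reached 100 counts in either library of the pair, 1.51% were 2-fold higher and 1.29% 2-fold lower in rectus femoris library 2, and 3.99% and 7.25% in tendon library 2. In tendon the largest ratios were those of Fbxo40, Foxo4 and Trim54, at 0.94, 0.93 and 0.79 on the log2 scale, all higher in library 2. Foxo1, Foxo3, Klf15 and Fbxo30 were lower there, at -0.64, -0.26, -0.43 and -0.18. The 10 fast fibre markers summed to 69525 CPM in tendon library 2 and 28649 CPM in library 1. Within that list Myh2 went the other way, with 3145 and 6177 CPM. The 8 slow fibre markers summed to 6916 CPM in library 2 and 13340 CPM in library 1. The 8 adipocyte markers summed to 2978 CPM in tendon library 2 and 6931 CPM in library 1, and the 3 nerve sheath markers to 60.2 and 1014 CPM, with none at 0. Their part in these ratios was not tested.

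In fat pad 9 of the 10 genes were lower in library 2, with Foxo1 higher at 0.16. The share of all genes lower there was not counted. The median log2 ratio of all genes that reached 100 counts in either library was 0.006. For Foxo4, with 15 counts in library 2 and 17 in library 1, the interval of -1.60 to 0.59 included 0. Among the 10, Fbxo40 alone was 2-fold lower with 100 counts or more in either library, with 36 counts in library 2 and 129 in library 1 (log2 ratio -2.10, 95% binomial interval -2.73 to -1.61), where 6.32% of all genes were 2-fold lower and 4.01% 2-fold higher. Trim63, with 44 counts in library 2 and 87 in library 1, stood at -1.27, and Trim55, with 3 in library 2 and 13 in library 1, at -1.90 (interval -4.88 to -0.57). The summed level of the 10 fast fibre markers was 213 CPM in fat pad library 2 and 221 CPM in library 1, and that of the 8 slow fibre markers was 213 and 193 CPM. The neutrophil markers stood at 212 CPM in library 2 and 1604 CPM in library 1, and the erythroid markers at 9372 and 29184 CPM, and their part in these ratios was not tested.

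The deposited TPM gave other ratios in 2 of the tissues. Across genes the TPM ratio of library 2 over library 1 followed the count ratio in fat pad (Pearson r = 0.995 over 13718 genes), and not in rectus femoris (-0.182 over 12195) or tendon (-0.226 over 13151), where genes are not independent replicates. Of the 10 genes, 4 had ratios of opposite sign in rectus femoris, 7 in tendon and 0 in fat pad. Tendon library 2 was higher than library 1 for 6 genes by counts and for 1 by TPM. Statements on single libraries of rectus femoris and tendon therefore hold for the count tables only.

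**Figure D4:**
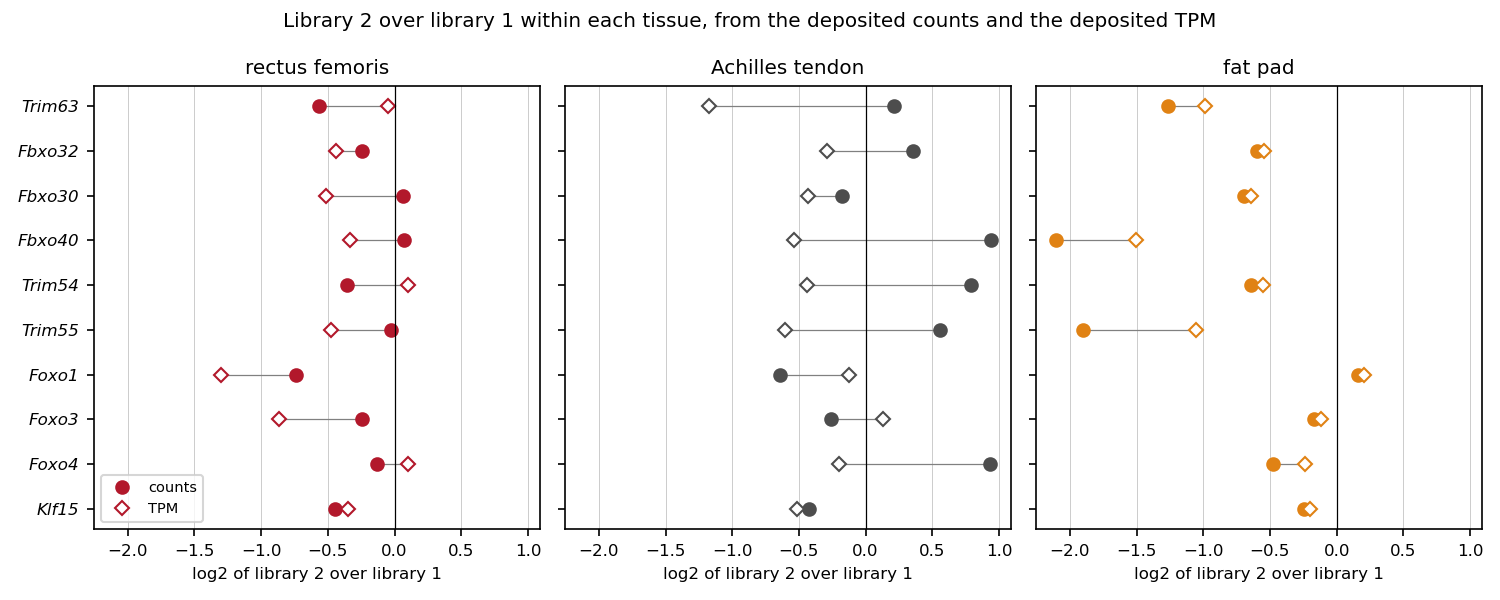
For each tissue, the log2 ratio of library 2 over library 1 is shown per gene from the deposited counts (filled circles) and from the deposited TPM (open diamonds), joined by a line. The pairs lie close together in fat pad except for the low genes, and fall on opposite sides of 0 for 7 genes in tendon and 4 in rectus femoris.

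The genes whose levels over the 6 libraries were most like those of a member were ranked by the root mean square difference of log2(CPM + 1), each gene centred on its own mean, among 13974 named genes with 100 counts or more in some library. Nearest to Trim63 were Fitm1, at a difference of 0.192, Art1 at 0.202 and Trim54 at 0.216. Foxo4 came at rank 12, Fbxo40 at 16, Trim55 at 105 and Fbxo32 at 243. Fbxo32, which unlike them was well detected in fat pad, had Tuba4a, Abcc9 and Ppm1j nearest, at 0.129, 0.140 and 0.145. Foxo1 lay nearest to Fmn1, Bfsp1 and Tcf19, and Klf15 to Ino80c, Gmnn and Atxn7l1.

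Around these genes, 8 lists of their pathway were counted, beginning with 22 other ligases and ubiquitin enzymes studied in muscle. In rectus femoris 15 of the 22 were higher and 3 lower than in fat pad, with a median log2 fold change of 1.76 beside -0.14 over all genes. The lists can be read against the shares of all genes called, which were 29.6% higher and 29.8% lower for rectus femoris over fat pad, 12.7% and 13.3% for rectus femoris over tendon, and 31.4% and 27.2% for tendon over fat pad. Some listed genes, among them Trim72, Foxo6, Mstn and Myod1, did not pass the filter on low counts through the fat pad. Their calls as higher than in fat pad carry no weight, although they enter the counts and medians of their lists. Trim72 and Myod1 were at 0 CPM in fat pad. Asb2, a ligase subunit tied to muscle mass in mice, averaged 1262 ± 327 CPM in rectus femoris and 4.57 ± 0.866 CPM in fat pad (SD, n = 2 each; log2 fold change 8.11 ± 0.54, edgeR adjusted p = 5.92e-05). Usp19, a deubiquitinating enzyme, averaged 290 ± 2.95 CPM in rectus femoris and 23.3 ± 1.43 CPM in fat pad. Fbxo21, the F-box ligase called SMART, was lower, with 16.9 ± 1.38 CPM in rectus femoris and 80.3 ± 39.2 CPM in fat pad (log2 fold change -2.25 ± 0.37, edgeR adjusted p = 0.00183). Tendon had 11 of the 22 higher and 4 lower than fat pad. Between rectus femoris and tendon 11 were higher and 0 lower in rectus femoris, among them Ube2d1 (log2 fold change 2.20 ± 0.44, edgeR adjusted p = 0.0173) and Ube2b (1.50 ± 0.33, 0.0214), both of them ubiquitin-conjugating enzymes. Under total counts the same comparison had 3 higher and 2 lower, and without either rectus femoris library 0.

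The proteasome is the machine that degrades what the ligases tag. Of 31 of its subunit genes, 4 were higher and 11 lower in rectus femoris than in fat pad (median -0.17), and 1 was higher and 26 lower in tendon than in fat pad (median -1.03). Over all genes 31.4% were higher and 27.2% lower in tendon than in fat pad by counts. In the deposited TPM at a pseudocount of 1, 8106 of 14929 genes were higher in tendon and 1603 lower. The tendon comparison had 7 higher and 6 lower in the deposited TPM, and 1 higher and 16 lower without fat pad library 2. Without rectus femoris library 2, 2 were higher and 7 lower in rectus femoris than in fat pad. Between rectus femoris and tendon 22 of 31 were higher and 0 lower in rectus femoris (median 0.87), but 2 were higher under total counts and 0 in the TPM at a pseudocount of 1, and 0 without either rectus femoris library. Of 16 autophagy and lysosome genes, 5 were higher and 8 lower in rectus femoris than in fat pad by counts, beside 29.6% and 29.8% of all genes, and 5 higher and 3 lower by TPM at a pseudocount of 1. Without either rectus femoris library 3 were higher and 5 lower. Ulk1, the kinase that starts autophagy, averaged 111 ± 7.88 CPM in rectus femoris and 11.2 ± 2.97 CPM in fat pad. Map1lc3b, which coats the autophagosome, averaged 262 ± 35.0 CPM in rectus femoris and 837 ± 11.3 CPM in fat pad (log2 fold change -1.68 ± 0.28, edgeR adjusted p = 0.00200).

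Among 16 other FoxO targets and relatives that could be tested, of 18 listed, 7 were higher and 5 lower in rectus femoris than in fat pad (median 0.53). Pdk4, the kinase that shuts off pyruvate dehydrogenase, averaged 813 ± 75.3 CPM in rectus femoris and 40.2 ± 3.94 CPM in fat pad (log2 fold change 4.34 ± 0.28, edgeR adjusted p = 5.58e-05). Foxo6, a further FoxO gene, averaged 11.4 ± 1.32 CPM in rectus femoris and 0.154 ± 0.0795 CPM in fat pad. Cat, encoding catalase, averaged 111 ± 13.6 CPM in rectus femoris and 1702 ± 269 CPM in fat pad (-3.94 ± 0.41, edgeR adjusted p = 0.000249). Of 23 genes of insulin, Akt and energy signalling, 14 were higher and 3 lower in rectus femoris than in fat pad (median 1.50). Irs1, the insulin receptor substrate, averaged 194 ± 91.3 CPM in rectus femoris and 39.7 ± 6.04 CPM in fat pad. Prkaa2, a catalytic subunit of the energy sensor AMPK, averaged 424 ± 69.1 CPM in rectus femoris and 7.53 ± 4.12 CPM in fat pad. Igf1, the growth factor at the top of this pathway, was lower, with 49.0 ± 4.33 CPM in rectus femoris and 258 ± 6.86 CPM in fat pad (log2 fold change -2.40 ± 0.27, edgeR adjusted p = 0.000328).

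Against tendon, 1 of these 23 signalling genes was higher and 5 were lower in rectus femoris (median -0.09), where 26% of all genes were called, so that the count is at the level of all genes. The lower ones included Igf1 (log2 fold change -1.33 ± 0.26, edgeR adjusted p = 0.0157) and Pik3r1, the regulatory subunit of PI3 kinase (-1.35 ± 0.36, 0.0351). Under total counts 0 were higher and 15 lower, and 0 of either kind were called without either rectus femoris library.

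Of 16 tested genes of myostatin signalling and denervation, 12 were higher and 3 lower in rectus femoris than in fat pad (median 2.61), and 11 were higher and 0 lower in tendon than in fat pad (median 2.31). Mstn, which encodes myostatin, the brake on muscle growth, averaged 145 ± 2.84 CPM in rectus femoris, 14.6 ± 17.5 CPM in tendon and 0.0578 ± 0.0817 CPM in fat pad. The difference in Mstn between rectus femoris and tendon was not called (edgeR adjusted p = 0.0595). Between these tissues 4 of the 16 were higher and 2 lower in rectus femoris, with 0 higher and 4 lower under total counts. Of the lower genes, Runx1, which rises in denervated muscle, averaged 3.04 ± 0.525 CPM in rectus femoris and 27.8 ± 0.757 CPM in tendon (log2 fold change -3.19 ± 0.24, edgeR adjusted p = 0.00298). Fst, encoding the myostatin antagonist follistatin, averaged 16.4 ± 0.384 CPM in rectus femoris and 57.7 ± 1.14 CPM in tendon (-1.81 ± 0.18, 0.00418). Runx1 was called in all 15 alternatives, and Fst was not called without either rectus femoris library.

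Of 17 genes of glucocorticoid response and amino acid breakdown, which include targets of Klf15, 5 were higher and 5 lower in rectus femoris than in fat pad (median 0.51), which is at the level of all genes, 29.6% higher and 29.8% lower. Nr3c1, the glucocorticoid receptor, averaged 200 ± 34.9 CPM in rectus femoris and 80.6 ± 4.32 CPM in fat pad (log2 fold change 1.31 ± 0.21, edgeR adjusted p = 0.00169). Hsd11b1, the enzyme that regenerates active glucocorticoid, averaged 7.65 ± 1.00 CPM in rectus femoris and 199 ± 17.7 CPM in fat pad (-4.71 ± 0.53, edgeR adjusted p = 0.000333). Against tendon 6 were higher and 0 lower in rectus femoris (median 0.49), among them Gpt2 (1.98 ± 0.32, edgeR adjusted p = 0.0106) and Bcat2 (1.01 ± 0.26, 0.0322), which act on alanine and on branched-chain amino acids. Under total counts 1 was higher and 2 lower, in the deposited TPM 2 were higher and 1 lower, and without either rectus femoris library 0 were called.

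The last list held known substrates and partners of the ligases, most of which are proteins of the muscle fibre. Of 19 genes, 17 were higher and 0 lower in rectus femoris than in fat pad (median 8.31), and 18 were higher and 0 lower in tendon than in fat pad (median 7.10). Myod1, with 0 counts in each fat pad library, is among the higher genes and carries no weight in these counts. Ttn, whose product binds MuRF1 and MuRF2, averaged 8869 ± 1172 CPM in rectus femoris, 5318 ± 1336 CPM in tendon and 14.6 ± 4.24 CPM in fat pad. Eif3f, encoding the substrate of atrogin-1, averaged 148 ± 12.9 CPM in rectus femoris and 47.5 ± 0.241 CPM in fat pad (log2 fold change 1.65 ± 0.20, edgeR adjusted p = 0.000508). Between rectus femoris and tendon 7 were higher and 1 lower in rectus femoris (median 0.74), with 4 of each under total counts and 0 called without either rectus femoris library. Ttn was not among them (log2 fold change 0.74 ± 0.40, edgeR adjusted p = 0.211).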

How the data were processed

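RNA-seq of 6 mouse libraries was analysed, 2 each from rectus femoris, Achilles tendon and infrapatellar fat pad. Bowtie2, RSEM 1.3.1, DESeq2 1.4.5 and the build GRCm39 are named, with no role for each, per the submitters' processing notes. How counts were made, with which strand setting, annotation and filter, is not given in the sources used here. The deposited count tables hold raw read counts for each Ensembl gene. The authors also deposited TPM of protein-coding genes (per transcript length, to a common total). Their log2 fold change of library 1 over library 2, mean log2 CPM, p-value, adjusted p-value and −log10 p-value, per the file headers, gave no result here. All per-sample columns were used (0 left out). TPM did not follow the counts library by library in 2 tissues, so counts were the main values.

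Genes in all 3 count tables (16964 of 20672) were fitted with edgeR 4.0.16 in R 4.3.3 (TMM, filterByExpr, quasi-likelihood test with 1 coefficient for each tissue and all 6 libraries, Benjamini-Hochberg adjustment over 15856 genes, threshold 0.05; biological coefficient of variation 0.336). Standard errors are the log2 fold change over the square root of F. Alternatives were DESeq2 1.42.0, limma 3.58.1 on log2(TPM + 1) and log2(TPM + 0.1), other scalings and filters, a block by library number and leaving out each library. The edgeR and limma fits were also run on simulated data. The simulated counts had less spread and far fewer changed genes than these libraries, so they do not show how well the fits work here. Library ratios used TMM scaling, with a prior count of 2 and exact 95% binomial intervals that cover counting error only; the floor of detection was 3 counts. Per-kilobase levels used exon lengths of GENCODE M21 (GRCm38), which also gave shared exon bases. Planned protein sequences and the Fbxo32 promoter were not used here.

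The 10 genes and all lists were chosen with earlier results of these data known. All 10 are named with values, and of the lists any gene may be named, by the rule set for the analysis.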

Additional observations from a re-analysis of the deposited data

How the results depend on the processing

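For tendon over fat pad the TPM called as many members as the counts but not the same ones: 8 were higher and 0 lower, with Fbxo30 gained (0.91, 0.97 and 0.91) and Klf15 lost. Over all genes, limma on log2(TPM + 1) had 8106 of 14929 higher and 1603 lower, against 4972 and 4308 of 15856 by counts. The same setting had 5766 higher and 3027 lower for rectus femoris over fat pad, and 533 higher and 4337 lower for rectus femoris over tendon. Leaving out 1 library at a time gave 8 to 8 members called for rectus femoris over fat pad (6892 to 9671 of all genes), 8 to 9 for tendon over fat pad (7825 to 8539) and 0 to 6 for rectus femoris over tendon (19 to 4380); where this left a tissue with 1 library, that library was assumed to vary like the others. For rectus femoris over tendon, total counts called 3 members and 6367 genes (398 higher, 5969 lower, against 2017 and 2110 with TMM). DESeq2's test called 8 members and 5770 of 16964 genes, and limma on log2(TPM + 0.1) called 2 members and 4475 of 14929 genes. Total counts moved the median of all genes to -0.66 for rectus femoris over fat pad and 0.23 for tendon over fat pad, where all 8 member calls held in each and Klf15 was added for rectus femoris over fat pad; over all genes 3420 were then higher and 6350 lower there, against 4698 and 4728 with TMM. By TPM 1 member was 2-fold apart between the libraries of rectus femoris and 1 between those of tendon. Against Ttn alone 3 members, and against Des alone 3 members, were lower in rectus femoris than in tendon per unit of muscle RNA.

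Fbxo30 changed sign for rectus femoris over fat pad in the TPM (0.45, 0.48 and 0.45), and with a library left out it ranged between -0.34 and 0.32. For rectus femoris over tendon it stood at 0.028 under DESeq2 size factors and 0.026 in DESeq2's test, and between -0.13 and 0.064 with a library left out. For tendon over fat pad it stood at -0.10 under DESeq2 size factors and in DESeq2's test and at -0.012 with only those 2 tissues, and between -0.29 and 0.33 with a library left out. In the TPM, Klf15 stood at 0.0274, 0.0279 and 0.0274 for rectus femoris over fat pad and at 0.0057, 0.0054 and 0.0057 for tendon over fat pad, and Foxo1 at 0.12 for tendon over fat pad. The autophagy list called 8, 9 and 9 genes in the 3 TPM settings for rectus femoris over fat pad, with more of them higher. The proteasome list called 13 in each for tendon over fat pad. For rectus femoris over tendon, total counts called 4 myostatin and 3 glucocorticoid genes, and leaving out a library called 1 to 7 myostatin genes. The cause was not tested.

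Library numbers come from library names, and no label says whether they pair the tissues. Deviations from the tissue means correlated at -0.30, -0.03 and 0.02 between tissues. With 2 libraries for each tissue, these values cannot show whether libraries of different tissues came from the same animal. With a replicate block 8 members were called over fat pad in rectus femoris and 8 in tendon, and 4 for rectus femoris over tendon, with 8649, 8650 and 2759 of all genes. The filter lets Trim55 and Foxo4 in by 2 tissues only, and their fat pad levels, from 3 to 17 counts, are limited by depth.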
